A study of Astyanax mexicanus with 12 samples.

Results

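A group of 127 genes had lower read counts in livers of Tinaja cavefish larvae than of surface fish larvae at both ages. Their change with age was small in each morph, which was a condition of the choice and depends on how libraries are scaled. The genes were selected by their measured values, out of 17540 genes that passed a filter on low counts and 27420 gene identifiers in all. The liver samples came from the Mexican tetra, Astyanax mexicanus, in which river-dwelling surface fish and blind cave populations such as Tinaja belong to a single species. Both morphs were sampled at 5 days post-fertilization (dpf), which the study treats as the fed state, and at 7 dpf, after fasting. Each of the 4 groups has 3 libraries, and each library holds the livers of 40 larvae. Embryos of a morph came from several parent tanks and were mixed, and the labels name no transgene and no drug in either morph. Age and feeding state changed together in this design and cannot be told apart. The fish were raised in the laboratory, so the libraries are pools of laboratory larvae and not of wild fish.

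The larval liver takes up fatty acids, stores and oxidizes them, makes glucose, and secretes most of the proteins of the blood plasma. Larvae first live on yolk and depend on food once it is used up. Cave populations live where food is scarce for long periods, and they are known for resistance to starvation.

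Gene names could not be given to these 127 genes. The count table lists Ensembl identifiers without names, and 0 of its 27420 identifiers matched the table of RefSeq genes used here. Roles, pathways, positions and sequences of the genes were therefore not analysed here, nor were markers of hepatocytes or of other cell types, so the label liver was not checked against marker genes. In pooled tissue, fewer cells of a type and less RNA per cell cannot be told apart.

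The choice rested on CPM, the read counts of a gene scaled to a common library size, which was adjusted by trimmed mean of M values (TMM) factors. CPM are not divided by gene length, so they rank genes by read support and not by transcript number. On the log2 scale a prior count of 2 was added, which keeps a gene without reads at a finite value. A gene was kept if its mean log2 CPM was under 10, if the change from 5 to 7 dpf was under 0.8 on the log2 scale in each morph, if all 6 Tinaja libraries lay below all 6 surface libraries, and if the mean of Tinaja was lower than that of surface fish by at least 1 at each age. Of the 17540 genes, 17415 met the first condition, 9710 the first and second, 315 also had the required differences between the morphs, and 127 met every condition. Since at most 200 genes were to be taken, all 127 are described. Every difference between the morphs given below was used in this choice and is a description without a test.

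At the limits the genes formed a continuum. The weakest difference inside the limit was -1.01 and the nearest outside was -0.99. The largest change with age inside was 0.794 and the nearest outside 0.801. The smallest gap between the lowest surface library and the highest Tinaja library was 0.0022 inside, and the nearest gene outside overlapped by 0.0177 (a gap of -0.0177), on the log2 scale. Of the genes that missed a single condition, 188 overlapped between the morphs, 140 had too small a difference and 100 changed too much with age. Turned round, the same conditions were met by 269 genes higher in Tinaja.

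The median of the 127 genes was 2.22 lower in Tinaja at 5 dpf and 2.08 lower at 7 dpf on the log2 scale (median differences of -2.22 and -2.08), equal to 4.67-fold and 4.23-fold. Over all genes tested the medians were -0.00099 and -0.02. The differences ran from -6.97 to -1.01 at 5 dpf and from -6.54 to -1.01 at 7 dpf. For 72 genes the difference was larger at 5 dpf and for 55 at 7 dpf, and for 78 genes the values at the 2 ages lay within 0.5 of each other. The limits on change with age also limit how far these values can differ. Taking for each gene the weaker of its differences, 14 genes were at -4 or below, 16 between -4 and -3, 26 between -3 and -2, and 71 above -2. On this scale a majority of the genes thus had a weaker difference of 2-fold to 4-fold. The prior count of 2 shrinks the differences of genes with few reads, so these folds and the median folds above can understate those in the counts. In the edgeR fit described below, the median difference of the 127 genes was -2.51 at 5 dpf and -2.55 at 7 dpf.

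**Figure D1:**
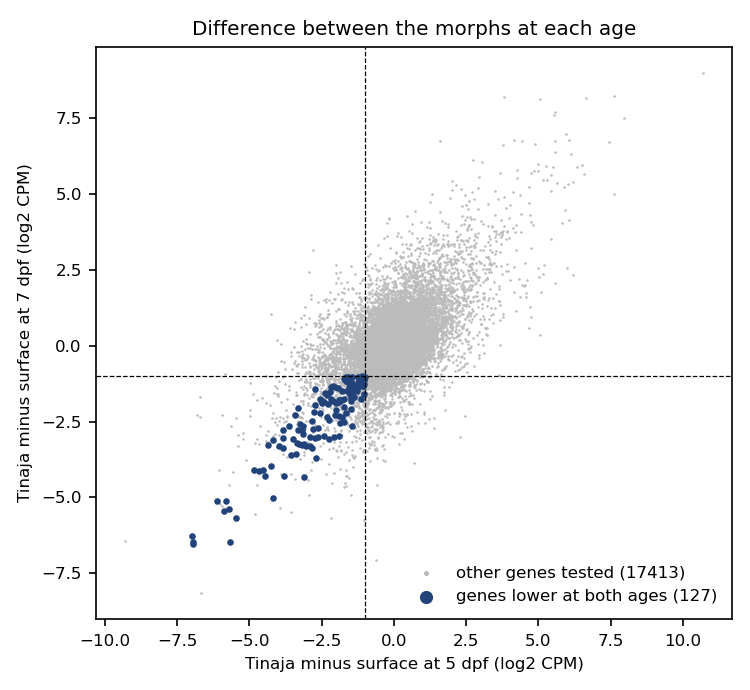
Difference between the morphs (Tinaja minus surface, group means of log2 CPM) at 5 dpf on the x axis and at 7 dpf on the y axis, with 1 point per gene tested. Dashed lines mark -1 on each axis, and the 127 genes (blue) lie in the lower left corner because the choice placed them there, with medians of -2.22 and -2.08.

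Tests across all genes give the background for these values. With the quasi-likelihood test of edgeR, lower levels in Tinaja at an adjusted p under 0.1 were called for 7.22% of all genes at 5 dpf and for 7.71% at 7 dpf. Of the 127 genes, 117 were called at 5 dpf and 113 at 7 dpf, and 107 at both. With a 2-fold change required as well, the background was 5.82% at 5 dpf and 5.19% at 7 dpf, and 116 and 112 of the 127 were called. The groups of all genes did not overlap in this direction for 2.18% of genes, against all 127 by choice. Nothing is read from these counts, since the same contrasts chose the genes. Without Tinaja 7 dpf replicate 3, 74 of the 127 were called at 7 dpf. When each library's percent of reads outside genes was added to the fit, 72 were called at 5 dpf and 92 at 7 dpf. The shares over all genes given above belong to the fit of all 12 libraries without this term. The shares over all genes in the other fits are not given here, so nothing is read from the lower counts. In the fit with reads outside genes, the median edgeR difference at 5 dpf was -2.6, against -2.51 without this term. The median standard error (SE) rose from 0.585 to 0.739. The SE was worked back from the test, as the absolute difference divided by the square root of the F statistic.

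**Figure D2:**
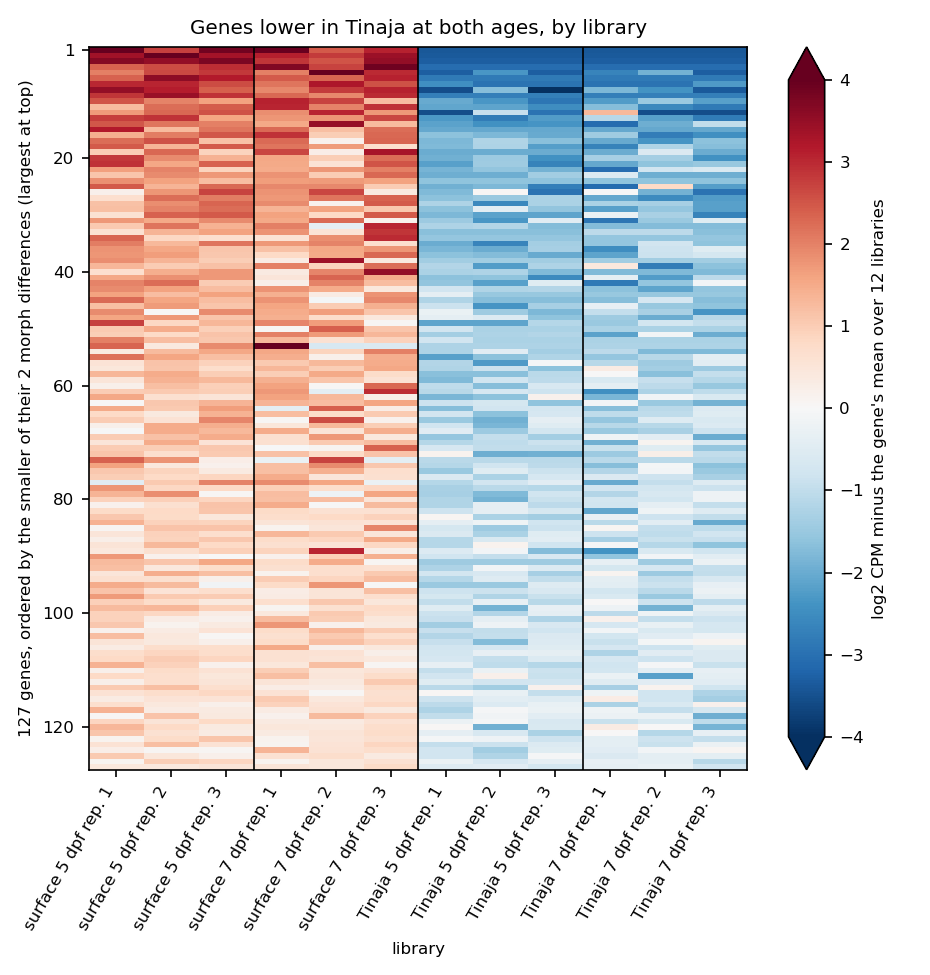
Level of each of the 127 genes (rows) in each of the 12 libraries (columns), as log2 CPM minus the gene's mean over the libraries, with rows ordered by the weaker of the 2 morph differences. Red is above and blue below the gene's mean, and the contrast between the surface and Tinaja columns fades from the top rows, at -4 or below, to the bottom rows near -1.

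Some of the genes had no reads in Tinaja at all, among them 6 of the 14 with the largest differences. For 12 of the 127 genes no read was found in any of the 6 Tinaja libraries, while every surface library held at least 1. Over the surface libraries these 12 genes had 62 to 1468 reads. Taking 3 counts over the 3 Tinaja libraries of an age as the limit that a count of 0 allows, they were at least 13.02-fold to 297-fold lower in Tinaja at 5 dpf and at least 8.29-fold to 178-fold lower at 7 dpf. These limits cover counting error only, and they start from the mean of the 3 surface libraries. For some of the 12 genes that mean at 7 dpf rests mainly on 1 library, and the examples here were named after their values were seen. ENSAMXG00000033676 had 103, 1 and 1 surface reads at 7 dpf, ENSAMXG00000043312 had 2, 24 and 1, and ENSAMXG00000040526 had 6, 49 and 4. In the edgeR tests above, ENSAMXG00000033676 was called at neither age, ENSAMXG00000043312 at 5 dpf only and ENSAMXG00000040526 at both. Of all genes tested, 20 had reads in every surface library and none in Tinaja, and the 8 that are not among the 127 missed the condition on age. The opposite pattern, reads in every Tinaja library and none in surface fish, was found for 18 genes.

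Of the 12, ENSAMXG00000030908 had the most surface reads, 1468. It stood at 22.9, 8.51 and 18.6 CPM in the surface libraries at 5 dpf (replicates 1, 2 and 3) and at 19.8, 6.94 and 10.8 CPM at 7 dpf. Replicate 2 was the lowest surface pool at both ages, and the Tinaja libraries were all at 0. The fall was at least 297-fold at 5 dpf and at least 178-fold at 7 dpf.

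ENSAMXG00000033192 followed with 1300 surface reads. Its surface libraries held 12.8, 22.5 and 12.6 CPM at 5 dpf and 10.95, 8.72 and 13.5 CPM at 7 dpf. It was even across the surface pools apart from replicate 2 at 5 dpf, and was at least 285-fold lower in Tinaja at 5 dpf and at least 157-fold at 7 dpf.

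ENSAMXG00000043767 had the largest difference at 5 dpf on the log2 scale with a prior count of 2, at -6.97. Its surface libraries held 15.7, 14.0 and 16.7 CPM at 5 dpf and 8.75, 7.005 and 14.1 CPM at 7 dpf, against none in Tinaja. The 3 pools at 5 dpf were close together and those at 7 dpf reached lower, and the fall was at least 275-fold and at least 141-fold.

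ENSAMXG00000039180 had 880 surface reads and a higher mean at the older age. Surface fish held 5.14, 6.11 and 7.79 CPM at 5 dpf and 13.1, 6.54 and 15.2 CPM at 7 dpf, and Tinaja none. The surface ages overlapped, at a change of 0.79 on the log2 scale, just inside the limit of the choice. It was at least 113-fold lower in Tinaja at 5 dpf and at least 164-fold lower at 7 dpf.

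Another 9 genes had 1 to 3 reads over all 6 Tinaja libraries. Their ratios of surface to Tinaja CPM ran from 26.3 (95% counting interval 8.69 to 130) to 314 (counting interval 86.6 to 2598). Absence of reads in single libraries was frequent. No read was found in at least 1 Tinaja library for 46 genes, among them the 12, and 81 genes had reads in all 6. Each Tinaja library had no read for 23 to 30 of the 127 genes. Detection of all 127 in each surface library was set by the choice, since a library without a read cannot lie above the others. Over all genes tested, 131 to 406 had no read in a Tinaja library and 162 to 494 in a surface library.

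**Figure D3:**
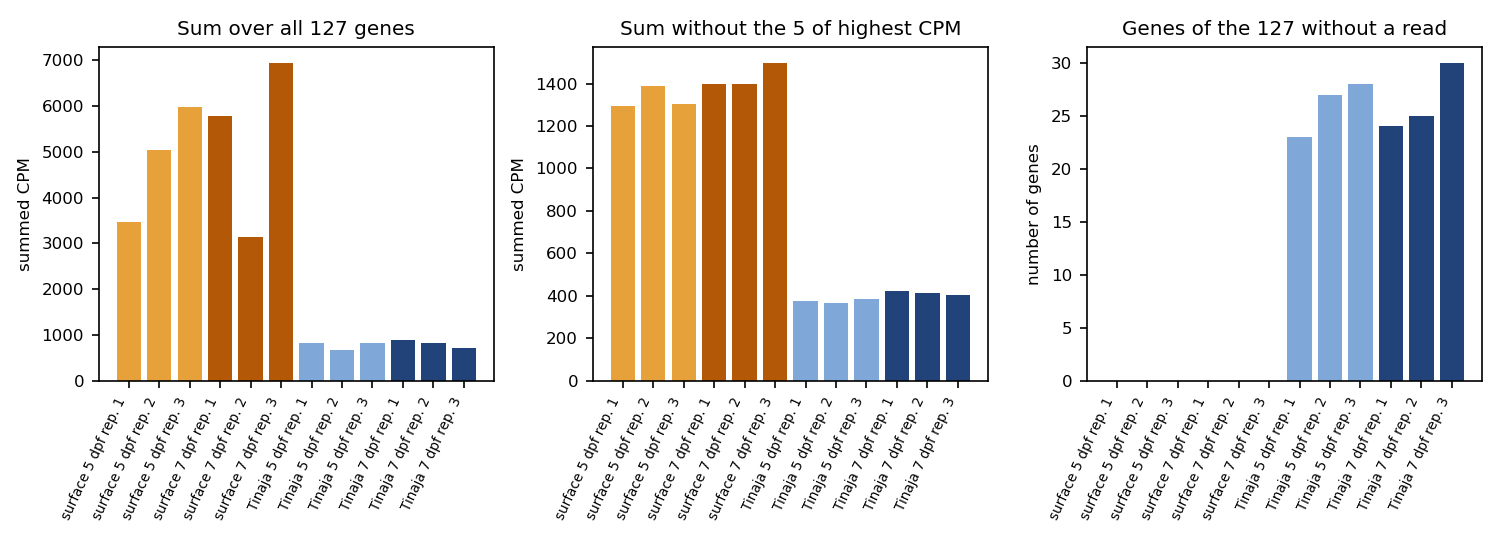
Bars give, for each library, the summed CPM of all 127 genes (left), the sum without the 5 genes of highest CPM in surface fish (middle) and the number of the 127 genes without a read (right). Surface libraries lie between 3136 and 6946 CPM in the left panel and at 0 genes in the right panel, and Tinaja libraries between 674 and 895 CPM and at 23 to 30 genes.

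Most of the 127 genes had low counts. Mean surface CPM had a median of 5.64, with 14 genes under 1 CPM, 71 between 1 and 10, 36 between 10 and 100 and 6 at 100 or more. In Tinaja the median was 0.67 CPM, with 35 genes under 0.1 CPM, 39 between 0.1 and 1, 35 between 1 and 10 and 18 at 10 or more. Over all genes tested the medians were 8.72 CPM in surface fish and 8.6 CPM in Tinaja. By mean log2 CPM over all libraries, 34.6% of the 127 genes and 14.2% of all genes were under 0, and 15% and 34.2% were at 4 or above. The median difference was larger where the mean over all libraries was lower, but a low Tinaja value itself lowers that mean. The median of the weaker difference was -2.63 in the 44 genes under 0, -1.8 in the 44 between 0 and 2, -1.5 in the 20 between 2 and 4, and -1.24 in the 19 at 4 or above. The lowest values in these bins, -5.46, -6.54, -3.12 and -4.19 in the same order, did not follow the mean. These values were all used in the choice, and nothing is read from their order.

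The largest counts came from a handful of genes. ENSAMXG00000038471 alone gave 46.2% of the summed CPM of the 127 in surface fish and 28.3% in Tinaja. The 5 genes of highest CPM in each morph, which were not all the same genes, gave 72.7% and 52.2%. ENSAMXG00000038471 held 1491, 2423 and 3304 CPM in surface fish at 5 dpf and 2445, 743 and 3608 CPM at 7 dpf. In Tinaja it held 281, 111 and 273 CPM at 5 dpf and 274, 261 and 148 CPM at 7 dpf. The morphs did not overlap, but surface 7 dpf replicate 2 stood far below its group. The group means were 2406 ± 907 against 221 ± 96.0 CPM at 5 dpf and 2265 ± 1441 against 228 ± 69.7 CPM at 7 dpf (SD, n = 3), with differences of -3.49 and -3.09 on the log2 scale.

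ENSAMXG00000032164 was the next by CPM and the only gene of high counts among the 14 with the largest differences, the other 13 being under 20 CPM in surface fish. It held 386, 753 and 862 CPM in surface fish at 5 dpf and 1326, 636 and 1207 CPM at 7 dpf. In Tinaja it held 38.1, 37.4 and 28.5 CPM at 5 dpf and 49.4, 27.2 and 22.5 CPM at 7 dpf. The lowest surface pool was thus well above the highest Tinaja pool. Its differences were -4.19 at 5 dpf and -5.01 at 7 dpf.

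The 6 genes with at least 100 CPM in surface fish ran from 100.5 to 2336 CPM there and from 33.8 to 225 CPM in Tinaja, ratios of 2.06 to 25.5. The 127 genes made up 0.635% ± 0.106 of the reads in genes in surface fish at 5 dpf and 0.427% ± 0.148 at 7 dpf, and 0.0792% ± 0.0219 and 0.0753% ± 0.0138 in Tinaja (SD, n = 3). These shares were taken without TMM factors. With the factors, the summed CPM in surface fish was 4831 ± 1262 at 5 dpf and 5288 ± 1952 at 7 dpf. In Tinaja it was 776 ± 88.7 and 812 ± 92.5. The ratio of the mean shares was 6.87 with all genes and 3.83 without the 5 of highest CPM in surface fish. In surface fish the sum is mostly theirs. Without these 5 the sums were tight within groups, at 1329 ± 51.9 and 1432 ± 57.2 CPM in surface fish and 375 ± 10.0 and 414 ± 9.2 CPM in Tinaja.

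**Figure D4:**
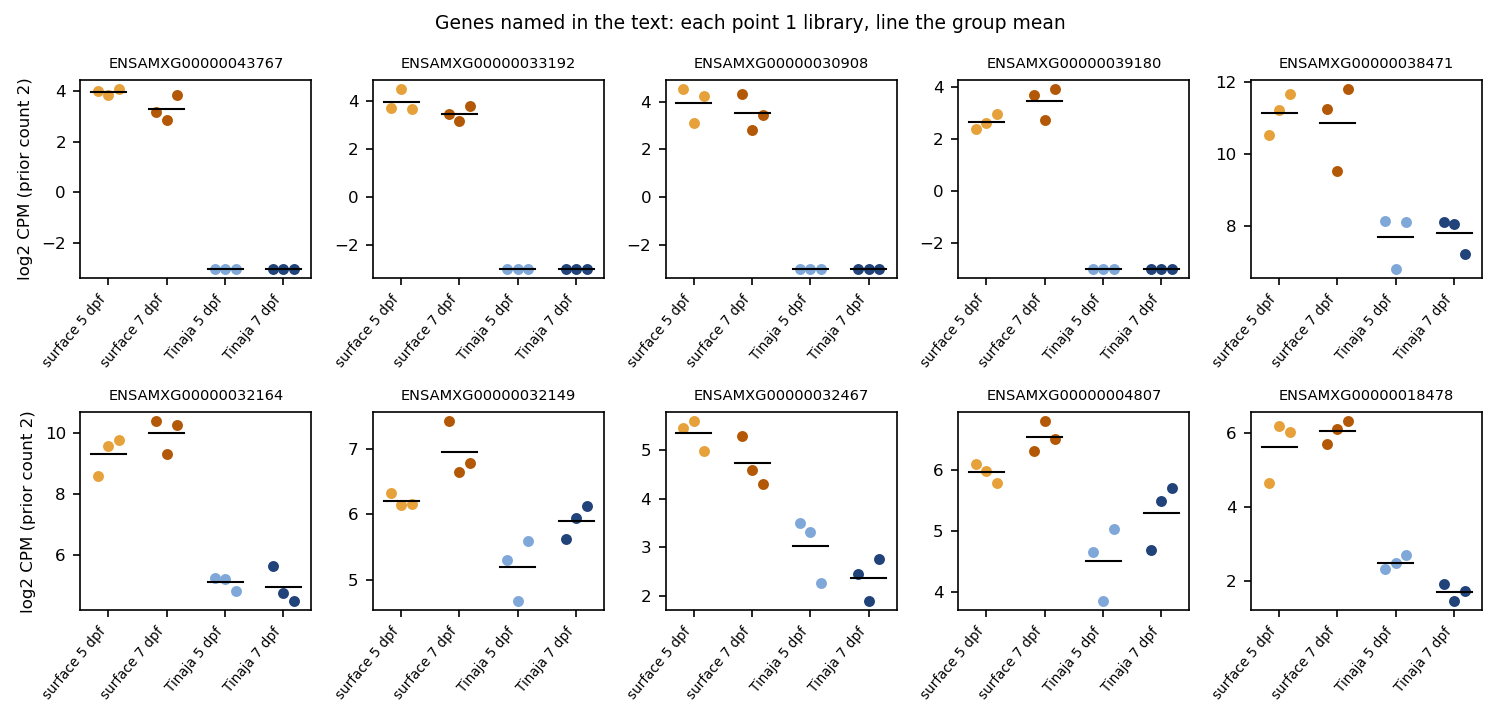
Level in log2 CPM (prior count 2) of the 10 genes chosen by rule, with 1 point per library and a line at each group mean. The panels have their own y axes, and in each panel the 6 Tinaja points lie below the 6 surface points. The genes without a Tinaja read lie on a flat line there.

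Changes with age were held under 0.8 by the choice, and what follows describes the range inside that limit. The median change from 5 to 7 dpf was -0.01 in surface fish and 0.09 in Tinaja, against -0.06 and 0.01 over all genes tested. In surface fish 62 of the 127 genes had a positive change. In Tinaja 71 did, and 12 were at 0 because they had no reads. Changes pointed the same way in both morphs for 37 genes upwards and 22 downwards. In 22 genes the change was positive in surface fish and negative in Tinaja, and in 34 the reverse. For 57 genes both changes were under 0.4. In edgeR, an age effect in either direction was called for 28.4% of all genes in surface fish and for 6.97% in Tinaja, and a difference of the age effects for 0.0456%. Among the 127, 2 were called in surface fish, both rising. Leaving out a surface library at 5 dpf gave 0 calls for replicates 1 and 2 and 1 call for replicate 3. At 7 dpf it gave 1 call for replicates 1 and 3 and 3 calls for replicate 2. In Tinaja and for the difference, 0 of the 127 were called, with 5 and 2 genes at an unadjusted p under 0.05. In Tinaja, 1 gene was called when replicate 1 of surface fish at 5 dpf was left out, and 1 when replicate 2 of Tinaja at 7 dpf was. DESeq2 and limma-voom also called 0 for both. Since the choice limited the change with age, nothing is read from these counts.

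Of the 29 genes with a mean log2 CPM of at least 3, ENSAMXG00000032149 rose most in surface fish, by 0.74. It held 80.2, 70.6 and 70.9 CPM at 5 dpf and 171, 100 and 110 CPM at 7 dpf in surface fish, and 39.3, 25.4 and 48.1 CPM and 48.9, 61.3 and 70.1 CPM in Tinaja. Both morphs stood higher at 7 dpf in their means, and the lowest surface pool exceeded the highest Tinaja pool by a small margin (70.6 against 70.1 CPM). It was 1 of the 2 genes called with age in surface fish. The other was ENSAMXG00000005138, a gene named after its values were seen, with a change of 0.67.

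Among the same 29 genes ENSAMXG00000032467 had the lowest change in surface fish, -0.62. Its surface libraries held 43.7, 48.3 and 31.5 CPM at 5 dpf and 39.2, 23.9 and 19.5 CPM at 7 dpf, and its Tinaja libraries 11.1, 9.75 and 4.67 CPM and 5.33, 3.57 and 6.65 CPM. The ages overlapped in each morph and the morphs did not, with differences of -2.33 and -2.36 between them.

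ENSAMXG00000004807 had the highest positive change in Tinaja, 0.78. It held 25.1, 14.4 and 32.6 CPM there at 5 dpf and 25.8, 44.8 and 51.8 CPM at 7 dpf. In surface fish it held 68.5, 63.1 and 55.3 CPM and then 79.1, 111 and 90.6 CPM. Tinaja ages overlapped, and all surface pools lay above all Tinaja pools.

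ENSAMXG00000018478 had the lowest change in Tinaja, -0.79. Tinaja libraries held 4.86, 5.48 and 6.35 CPM at 5 dpf and 3.69, 2.63 and 3.21 CPM at 7 dpf, with no overlap of the ages. In surface fish it held 24.9, 73.1 and 64.4 CPM and then 51.3, 69.3 and 79.4 CPM, where only replicate 1 at 5 dpf stood low. The difference between the morphs was -3.12 at 5 dpf and -4.33 at 7 dpf.

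The spread between pools of a group is set beside that of all genes, also in bins of the mean over all 12 libraries. The 127 genes lie above that mean in surface fish and below it in Tinaja, so levels within a morph are not matched. The choice also limited the spread, since it required that the morphs do not overlap. Nothing is read from these values. The median SD of log2 CPM within groups was 0.52 in surface fish and 0.514 in Tinaja for the 127 genes, against 0.382 and 0.452 over all genes tested. Among genes with a mean log2 CPM under 0 it was 0.767 against 0.729 in surface fish and 0.481 against 0.755 in Tinaja, where 8 of these 44 genes had no reads and so no spread. Between 0 and 2 it was 0.489 against 0.521 in surface fish and 0.626 against 0.551 in Tinaja. Between 2 and 4 it was 0.335 against 0.337 in surface fish and 0.497 against 0.385 in Tinaja. Among genes with a mean log2 CPM of 4 or above it was 0.306 against 0.286 in surface fish and 0.38 against 0.383 in Tinaja. Across the 6 surface libraries the highest CPM of a gene was 2.61 times the lowest in the median, and over 10 times for 8 genes. The part of single libraries was counted over the 6 libraries of a morph, so a library that dominates at 1 age can be missed. The shares over all genes are not given here, so nothing is read from these counts. Of the 92 genes with at least 10 Tinaja reads, 4 had over 50% of their summed Tinaja CPM in 1 library, and of all 127 genes 3 had over 50% of their surface CPM in 1 library.

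Some libraries set the edges of the morphs more often than others. Surface 7 dpf replicate 2 was the lowest surface library for 32 of the 127 genes, and surface 5 dpf replicate 2 for 8. Of the 115 genes with Tinaja reads, Tinaja 7 dpf replicate 1 was the highest Tinaja library for 27, and Tinaja 5 dpf replicate 3 for 12.

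Since all 12 libraries took part in the choice, the conditions were also applied without each library in turn, and the library left out was then read. Without a library 134 to 167 genes met the conditions, of which 98 to 116 were among the 127. Over the 12 choices this made 1758 genes, counting repeats. Of these, 118 did not pass the filter on low counts over all 12 libraries and were not read, so the left-out library still had a part, through the filter and the scaling, in which genes were read. In 85.9% of the other 1640 readings (1409) the left-out library lay beyond all 6 libraries of the other morph, above them for surface libraries and below them for Tinaja libraries. The share ran from 73.2% for surface 7 dpf replicate 2 and 74.2% for surface 7 dpf replicate 3 to 96.6% for Tinaja 5 dpf replicate 3. The same was true of 15.2% to 23.9% of all genes tested. The left-out library lay on its own side of the other morph's mean for 85.5% to 100% of the genes, and for 49.0% to 52.1% of all genes. The genes read were chosen because the remaining libraries of the morphs already did not overlap and differed by at least 1. All genes tested met no such condition, so their shares are not those of chosen genes without a morph difference. Nothing is read from the contrast between the shares. They are descriptions, and genes of 1 library are not independent.

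**Figure D5:**
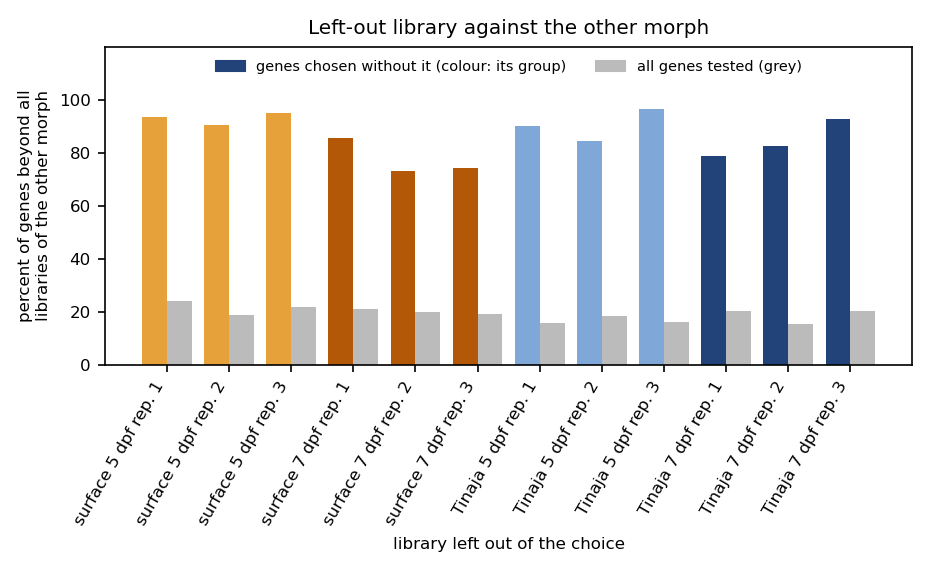
For each library left out of the choice (x axis), the coloured bar gives the percent of the genes chosen without it, and passing the filter over all 12 libraries, in which it lay beyond all libraries of the other morph, and the grey bar the same percent over all genes tested. Coloured bars run from 73.2% to 96.6% and grey bars from 15.2% to 23.9%. The grey bars cover genes that were not chosen for a morph difference, so they are no reference for the coloured bars.

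The libraries held 10.6 to 23.6 M reads in genes, and 3.9% to 9.63% of all reads were unaligned. Reads of both morphs were aligned to the same genome, and the sources used here do not say which morph it came from. The percents below are of whole libraries and do not show how well reads of single genes aligned, which was not tested. Unaligned reads made up 5.52% in Tinaja against 7.86% in surface fish at 5 dpf and 6.55% against 4.35% at 7 dpf, so the order of the morphs differed between the ages (exact two-sided permutation p = 0.2 at each age, adjusted p = 0.267 over 8 such comparisons, where 3 against 3 libraries cannot go below 0.1). Reads at many places, which were counted to no gene, stood at 9.08% against 8.68% and at 7.7% against 6.96% (exact permutation p = 0.9 and 0.4, adjusted p = 0.9 and 0.457). Reads outside genes stood at 24.0% against 30.7% at 5 dpf and at 25.4% against 21.7% at 7 dpf, and reads in overlapping genes at 1.59% against 1.14% and at 1.54% against 1.86% (for each, exact permutation p = 0.2 at 5 dpf and 0.1 at 7 dpf, adjusted p = 0.267). The part of these read classes in the levels of the 127 genes was not tested. The scaling of the libraries bears on the choice. When libraries were scaled by their totals alone, the median over all genes moved from 0.003 to -0.40 at 5 dpf and from -0.01 to 0.19 at 7 dpf, and lower genes made up 78.1% of those called at 5 dpf, against 45.1% with TMM factors. At 7 dpf they made up 33.9%, against 42.1% with TMM factors. On that scale 111 of the 127 genes did not overlap, 113 differed by at least 1 at both ages, and 57 met every condition, chiefly because 59 changed by at least 0.8 with age in surface fish. The median change with age in surface fish was then -0.69, against -0.01 with TMM factors.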

How the data were processed

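The authors sequenced polyadenylated RNA in strand-specific libraries as single reads of 75 bp, aligned them with STAR 2.7.3a to astMex_2.0 with Ensembl 102 gene models, and name RSEM 1.3.0 for quantification. They deposited whole-number read counts per gene for 12 libraries, in the form of STAR's gene counts. The sources used here do not give the strand setting, so reads of overlapping genes may be misassigned, and near-identical paralogues lose reads placed at many sites. Reads in the 4 summary lines, which name no gene, were left out of all library sizes, and unaligned reads made up 3.9% to 9.63% of a library.

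Genes were filtered with filterByExpr and tested in R 4.3.3 by edgeR 4.0.16 (quasi-likelihood), with TMM factors, robust dispersions, 1 mean per group and 8 residual degrees of freedom. A call is a Benjamini-Hochberg adjusted p under 0.1 over all 17540 genes. Libraries are pools, and whether they are separate clutches is not stated, so spread may be technical. Named genes were, with identifiers only, the 2 lowest differences at each age, the 2 of highest surface CPM, the 2 without Tinaja reads and most surface reads, and the extremes of age change at mean log2 CPM of at least 3. The members and lists were chosen with earlier results of these data known. The lists of pathways and markers were not used, because no identifier could be named. Alternatives were other scalings and filters, other prior counts, leaving out libraries, a replicate block, a covariate, DESeq2 1.42.0 and limma-voom 3.58.1.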

Additional observations from a re-analysis of the deposited data

How the results depend on the processing

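The number of genes that met every condition was 121 with DESeq2 size factors, 124 with library totals, 153 without a filter on low counts, 130 with a filter of 0.5 CPM, 106 and 130 with prior counts of 0.5 and 5, 127 without a level limit, and 134 to 167 without each library in turn. Of the 127 genes, 57 were chosen again with library totals and 105 to 127 under the other scalings, filters and prior counts. Calls among the 127 at 5 dpf were 117, 121 with library totals, 83 to 119 with a library left out and 72 with the percent of reads outside genes as a covariate. At 7 dpf they were 113, 90 with library totals and 74 to 111 with a library left out, and the count with the covariate is given above. Calls over all genes are not given here for the fits with a library left out or with the covariate. Nothing is therefore read from the counts of those fits. Over all genes, 1266 were called lower in Tinaja at 5 dpf with TMM factors and 2519 with library totals. At 7 dpf these numbers were 1352 and 930. Among the 127, the calls with age in surface fish were 2, and 22 with library totals, 4 with the covariate, 6 in limma-voom and 0 to 3 with a library left out. Over all genes, calls with age in surface fish also rose, from 4989 with TMM factors to 8128 with library totals. The rise was thus not confined to the 127, and nothing is read from it about these genes. For age, calls over all genes with the covariate, in limma-voom and with a library left out are not given here either. In Tinaja the calls with age among the 127 were 0, and 0 to 1 with a library left out. The difference of the age effects had 0 calls among the 127 in all of these fits. The ratio of the summed shares was 6.87, and 6.31 to 7.58 with a library left out. It was 3.83 without the 5 genes of highest CPM in surface fish, a setting added after the data were seen. The left-out library lay beyond the other morph for 73.2% to 96.6% of the genes chosen without it. Of the 10 genes chosen by rule, ENSAMXG00000032149 and ENSAMXG00000004807 lost a call at 1 age or the other under some settings, and the other genes did not. The cause of these changes was not tested.

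The replicate numbers do not mark shared clutches in the labels. Deviations from group means correlated at -0.283 to 0.41 between same-numbered libraries and at -0.367 to 0.383 between others, so the numbers were not taken as pairs. With the replicate number as a block 111 of the 127 genes were called at 5 dpf and 100 at 7 dpf, 2 with age in surface fish and 0 in Tinaja. The share called over all genes in that fit is not given here, so nothing is read from these counts. Genes at a few reads per library are limited by depth, and a count of 0 over the Tinaja libraries of an age allows up to 0.0562 CPM at 5 dpf and 0.0705 CPM at 7 dpf.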
